A study of Mus musculus with 72 samples.

Results

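Macrophages of the mouse kidney were followed through 10 genes that mark them: Adgre1, Csf1r, Cd68, Lyz2, C1qa, C1qb, C1qc, Aif1, Tyrobp and Gpr65. The genes were matched by symbol to the array's probe annotation, and the brightest probe of each gene over all arrays used was taken. A probe was found for 8 of the 10 members, out of 16593 genes with a probe; Csf1r and Cd68 were not analysed here. The 8 members had 14 probes between them, and all 8 passed the filter on dim probes in every fit.

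Total RNA of Balb/c mice was taken from the medulla and the cortex of the kidney after internal exposure to 177Lu, a radionuclide that emits beta particles. The exposed groups had absorbed doses of 0.3, 3 or 10 Gy, and the control groups have no absorbed dose in the labels, although the labels name the nuclide for them too. Each dose and the control were measured at 1.5, 3 and 4.5 months in both tissues, which gives 24 groups with 3 arrays each. The labels do not say from which event the months were counted, how old the mice were, or whether the 3 arrays of a group came from separate mice, so the p-values below measure the spread between these samples, which may be technical. One array, replicate 3 of the control cortex at 1.5 months, stood apart from the rest (mean r of 0.769 with the other cortex arrays over all probes, against at least 0.976 for every other cortex array) and was left out, so that 71 arrays were used, 36 of medulla and 35 of cortex. The 8 members were 2.16 to 5.71 log2 units higher on that array than the mean of the other 2 controls of its group. On it the summed intensity of 6 thick ascending limb genes was 767, against 46629 to 53069 on those 2 controls, and that of 12 proximal tubule genes 15254, against 91108 to 101080. Most of the signal of these 2 tubule segments was thus missing, while the sum of collecting duct genes was higher, as given at the end. Values with this array put back stand beside most member results that rest on its group. They are also given for other macrophage and monocyte genes and, over time, for antigen presentation genes. Comparisons of the other gene lists are given only without it. Median intensity was 143 to 144 on every array, because the deposited values had been made alike between arrays.

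Resident macrophages lie between the tubules of the kidney, where they take up debris and immune complexes. Growth and survival of these cells depend on the CSF1 receptor, and their identity genes are read out under the transcription factor PU.1, which binds purine-rich DNA around a GAGGAA core. Adgre1 encodes a surface receptor whose protein is widely stained to find mouse macrophages. Lyz2 encodes lysozyme M, an enzyme that breaks bacterial cell walls and is made by macrophages, monocytes and neutrophils. C1qa, C1qb and C1qc encode the chains of C1q, which starts the classical complement pathway and is made largely by macrophages. Aif1 encodes IBA1, a calcium- and actin-binding protein of macrophages. Tyrobp encodes DAP12, an adaptor that carries signals from activating receptors, and Gpr65 encodes a proton-sensing receptor of macrophages and lymphocytes. In whole tissue, fewer macrophages and less RNA per macrophage cannot be told apart.

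C1qa, C1qb and C1qc lie side by side on chr4:136880126-136898844 (RefSeq, GRCm38.p6), a stretch of 18719 bases. RefSeq promoter windows were matched for 5 of the 8 measured members, namely Lyz2, C1qb, C1qc, Aif1 and Gpr65, and each was read over the 250 bases before the annotated start. The windows of C1qb and C1qc are shown because this pair had the highest Pearson r in both tissues over all arrays used, and that of Lyz2 because it had the widest tissue difference. Capitals mark GAGGAA or its reverse TTCCTC. The C1qb window is chr4:136886201-136886450, the C1qc window chr4:136892915-136893164 and the Lyz2 window chr10:117282273-117282522, all on the minus strand.

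C1qb: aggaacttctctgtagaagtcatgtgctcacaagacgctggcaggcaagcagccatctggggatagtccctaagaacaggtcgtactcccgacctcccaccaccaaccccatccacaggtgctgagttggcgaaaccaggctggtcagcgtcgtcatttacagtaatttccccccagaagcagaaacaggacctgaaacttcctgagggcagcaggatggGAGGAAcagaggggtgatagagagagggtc

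C1qc: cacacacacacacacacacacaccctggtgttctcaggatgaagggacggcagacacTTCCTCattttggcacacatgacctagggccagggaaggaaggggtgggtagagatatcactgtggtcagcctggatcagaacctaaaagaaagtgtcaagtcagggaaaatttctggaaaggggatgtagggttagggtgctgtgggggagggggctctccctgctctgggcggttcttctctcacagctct

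Lyz2: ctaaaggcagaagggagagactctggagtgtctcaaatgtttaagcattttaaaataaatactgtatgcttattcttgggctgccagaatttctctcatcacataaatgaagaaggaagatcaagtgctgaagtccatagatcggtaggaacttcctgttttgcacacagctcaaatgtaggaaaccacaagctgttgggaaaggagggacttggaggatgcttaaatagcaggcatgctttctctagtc

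GAGGAA was present on either strand in 4 of the 5 windows, against 23.3% of 32851 RefSeq promoter windows of the same length. Counted from the start, the match began at base -30 in C1qb and at base -193 in C1qc, both shown above, at base -7 in Aif1 and at base -48 in Gpr65. The Lyz2 window held none. The longer form GAGGAAGT was found in C1qc alone of the 5, and in 2.44% of all windows. These matches describe the letters of the windows and not binding.

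The members were higher in medulla than in cortex. In exposed kidneys, averaged over doses and times, 7 of the 8 members rose in medulla against cortex after Benjamini-Hochberg adjustment over all genes in limma, where 28.9% of 9019 genes were higher. In control kidneys the count was also 7 of 8, where 18.7% of genes were higher. The median difference of the 8 members was 0.33 log2 units in exposed and 0.38 in control kidneys, beside -0.02 and -0.01 over all genes. Aif1 did not pass in either.

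Lyz2 differed most between the tissues. In exposed kidneys its log2 intensity ran from 9.73 to 11.57 in medulla and from 8.05 to 10.95 in cortex (27 arrays each). These ranges overlapped, and the difference was 1.94 ± 0.12 log2 units (standard error; limma, adjusted p = 1.52e-20). In control medulla it ran from 10.20 to 12.05 with a median of 10.72 (9 arrays), and in control cortex from 7.78 to 10.20 with a median of 8.54 (8 arrays). The control ranges did not overlap, although the highest cortex array, one of 4.5 months, came close to the lowest medulla array, one of 1.5 months. The difference was 2.17 ± 0.22, a 4.50-fold higher signal in medulla (limma, adjusted p = 4.42e-12). Lyz1, the neighbouring lysozyme gene, is nearly identical in sequence, and signal from the 2 genes may not be told apart by these probes.

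Adgre1 ran from 7.91 to 9.68 in exposed medulla, against 7.48 to 8.49 in exposed cortex (27 arrays each), and from 7.74 to 9.59 in control medulla, against 7.59 to 8.80 in control cortex. The ranges overlapped in exposed and in control kidneys, and in control kidneys the highest cortex arrays were those of 4.5 months and the lowest medulla array was one of 1.5 months. The difference was 0.86 ± 0.09 in exposed kidneys (adjusted p = 8.01e-12, limma) and 0.72 ± 0.17 in control kidneys (adjusted p = 0.000385). Its next brightest probe differed by 0.64 in exposed and 0.44 in control kidneys, and the third lay under the intensity floor of 150 in every group mean.

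The C1q chains followed, in the order C1qc, C1qb and C1qa. In exposed kidneys they differed by 0.56, 0.43 and 0.17 in that order, each past the threshold in limma. C1qc averaged 8.99 log2 units in control medulla and 8.43 in control cortex, a difference of 0.56 ± 0.15 (adjusted p = 0.00182). C1qb averaged 8.71 in control medulla and 8.19 in control cortex, a difference of 0.52 ± 0.16 (adjusted p = 0.00724). For C1qa the difference was 0.23 ± 0.07 (adjusted p = 0.00583, limma).

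The members with roles in signalling had small differences. In exposed kidneys Tyrobp and Gpr65 were 0.22 and 0.18 higher in medulla, both past the threshold. Tyrobp was higher in control medulla by 0.24 ± 0.08 (adjusted p = 0.0107), and Gpr65 by 0.21 ± 0.07 (adjusted p = 0.0163). Tyrobp lay near the intensity floor, at or above it on 33 of 36 medulla arrays and 20 of 35 cortex arrays, so that its differences on the log2 scale rest on dim signal. The Tyrobp call in control kidneys was lost without replicate 2 of the control cortex at 1.5 months (0.19, adjusted p = 0.0734), and the Gpr65 call without replicate 1 of that group (0.19, adjusted p = 0.0560). Aif1 differed by 0.05 in exposed kidneys (95% interval -0.06 to 0.17) and by 0.12 in control kidneys (-0.09 to 0.33).

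**Figure D1:**
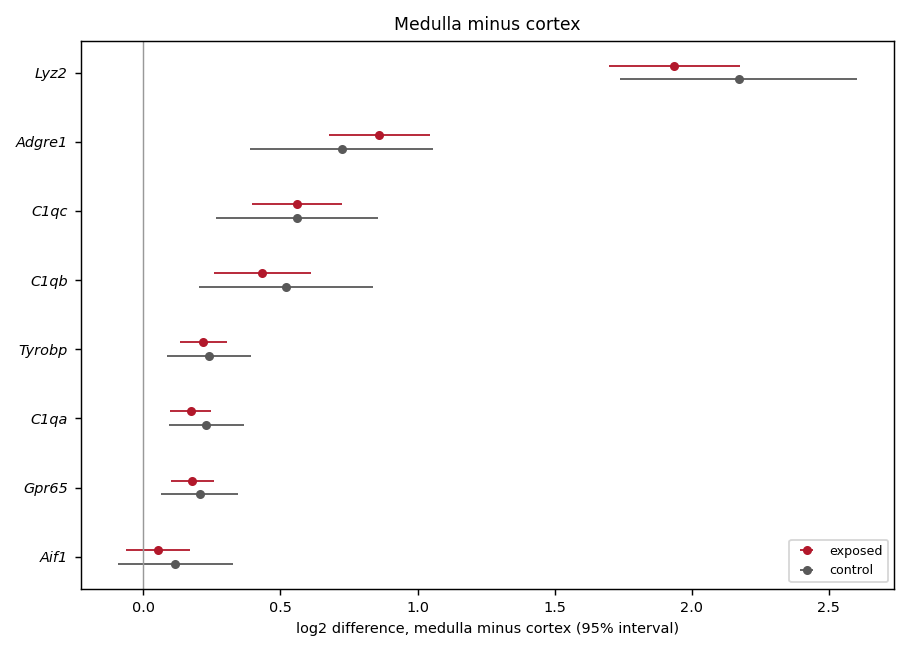
Log2 difference of each member between medulla and cortex in exposed (red) and control (grey) kidneys, with 95% intervals on the horizontal axis. Lyz2 stands at 1.94 and 2.17, and only the Aif1 intervals take in 0.

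With the array that stood apart put back, the exposed difference was called for 4 of the 8 members (Lyz2, Adgre1, C1qc and C1qb) and the control difference for Lyz2 alone (1.54, adjusted p = 0.00109 in limma), where 54.1% and 27.7% of genes were called in either direction. In that fit the control differences of Aif1 (-0.25), Gpr65 (-0.17), Tyrobp (-0.093) and C1qa (-0.0097) were below 0.

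Other genes of macrophages and monocytes were split between the tissues. Of 48 such genes with a probe, 26 passed the filter. In exposed kidneys 12 rose and 4 fell in medulla, while in control kidneys 7 rose and 4 fell. Of all genes 28.9% rose and 31.9% fell in exposed medulla, and 18.7% rose and 18.6% fell in control medulla. The LPS co-receptor gene Cd14 was 0.65 higher, and Laptm5, a lysosomal membrane gene of white blood cells, 0.53 higher in control medulla. In contrast Cyba, a subunit of the phagocyte oxidase that other cells also make, was 0.42 lower there, and the efferocytosis receptor gene Mertk 0.34 lower. A list of colony-stimulating factors, their receptors and signalling genes had 8 genes tested, of which 4 rose in control medulla and 0 fell. Il34 and Csf1, which encode the ligands of the CSF1 receptor, rose by 0.27 and 0.23, and the others were Pik3cg, a catalytic subunit of PI3 kinase, and Csf2ra, a chain of the GM-CSF receptor. In exposed medulla these 4 also rose, and Stat3 of this list fell by 0.19 (limma, adjusted p = 0.0172). The genes that work beside C1q moved apart in control medulla: 3 of 8 rose (Serping1, Cd93 and Cd55) and 2 fell (C4b and C2). Serping1, the C1 inhibitor, was 1.05 higher and C4b, a substrate of the C1 complex, fell by 1.00 log2 units in control medulla. Of a list of Tyrobp partners and downstream signalling genes, 1 of 6 tested rose in control medulla, the adaptor gene Blnk by 0.18. In the same comparison 1 fell, the phospholipase gene Plcg2 by 0.39. Both are signalling genes of the list and not partners of Tyrobp. With the array that stood apart put back, 7 rose and 4 fell of the other macrophage and monocyte genes in exposed kidneys, and 1 rose and 5 fell in control kidneys. The other lists of this paragraph are given only without that array, so their control values may depend on leaving it out.

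Markers of other cell types also moved with tissue. The collecting duct water channel gene Aqp2 was 1.27 higher and the thick ascending limb transporter gene Slc12a1 1.23 higher in control medulla, and the proximal tubule glucose transporter gene Slc5a2 fell by 1.32 log2 units there. In control medulla 6 of 10 endothelial genes rose, among them Esam by 1.60 and Plvap by 1.35, and their summed intensity ran from 13705 to 19010, against 6544 to 10805 in control cortex. Of 9 fibroblast and pericyte genes tested 5 rose, among them Pdgfra by 0.96, with sums of 9313 to 15232 in medulla and 6070 to 11137 in cortex. Of 6 thick ascending limb genes 2 rose, of 6 collecting duct genes 3 rose and 2 fell, and of 11 proximal tubule genes 2 rose and 6 fell, the last with sums of 92947 to 110676 in medulla and 85991 to 110519 in cortex. Neutrophil genes, which share Lyz2 with macrophages, summed to 1810 to 4390 in medulla and 1689 to 3222 in cortex, and 5 of the 13 with a probe were under the floor on all 71 arrays. Of these genes only Lcn2 was called in control medulla, 1.21 higher. In exposed medulla Lcn2 was 1.17 higher and Mmp9 0.07 lower. Which genes carried the sums was not tested. These control values are given only without the array that stood apart and may depend on leaving it out. The part of these other cells in the tissue differences was not tested.

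The members were also compared between 4.5 and 1.5 months, within each tissue and within exposed and control kidneys. All 8 members lay above 0 in each of the 4 comparisons, where 49.4% of all genes did in exposed medulla, 44% in control medulla, 46.5% in exposed cortex and 44% in control cortex. The members share the same arrays and tended to move together within groups (median Pearson r of 0.44 in medulla and 0.34 in cortex). Counts out of 8, here and below, are therefore not counts of independent observations. Tyrobp in cortex was above the floor on all arrays of only 3 groups, among them the control of 4.5 months. It thus passed the filter there through groups where it was high. Few members passed the adjusted test. These were Adgre1 in control cortex, Adgre1 and Lyz2 in exposed cortex and Gpr65 in control medulla, with 0 in exposed medulla, where 5 of the 8 members had an unadjusted p under 0.05 in limma, against 8.55% of all genes, and 0.0691% of genes were called higher.

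Adgre1 was the member called in both control and exposed cortex, although the difference of Lyz2 was larger in each. For Adgre1, control cortex had log2 intensities of 8.25, 8.72 and 8.80 at 4.5 months, against 7.61 and 7.70 at 1.5 months. The 3-month arrays had 7.77, 7.77 and 7.59. All 3 arrays of 4.5 months lay above all 5 earlier ones. The difference between 4.5 and 1.5 months was 0.93 ± 0.16, a 1.91-fold higher signal (limma, adjusted p = 0.0248), and Adgre1 was the 1 gene called of 8699, or 0.0115%. The second probe of Adgre1 differed by 0.52, and with the mean of its probes the difference was 0.46 (adjusted p = 0.0665). The call rested on single arrays of small groups. It held without replicate 1 of 4.5 months, and was lost without replicate 1 (0.88, adjusted p = 0.713) or replicate 2 (0.98, adjusted p = 0.0855) of 1.5 months, and without replicate 2 (0.87, adjusted p = 0.214) or replicate 3 (0.82, adjusted p = 0.400) of 4.5 months. A fit on the arrays of these groups alone gave an adjusted p of 0.173.

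The direction in control cortex also rests on the array left out. With replicate 3 of 1.5 months put back, all 8 members were lower at 4.5 than at 1.5 months, by 0.25 (C1qa) to 0.81 (Aif1) log2 units, and Adgre1 fell by 0.30, none of them called.

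Lyz2 in control cortex was measured at 8.99, 9.61 and 10.20 at 4.5 months, against 8.52 and 8.15 at 1.5 months. The groups did not overlap, yet the difference of 1.26 ± 0.42 did not pass the adjusted test (limma, adjusted p = 0.320). The median of the 8 members was 0.51 and that of all genes -0.02, and 6 of the 8 had an unadjusted p under 0.05, against 9.24% of all genes.

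In exposed cortex, averaged over the 3 doses, Adgre1 was 0.37 ± 0.08 higher at 4.5 than at 1.5 months (limma, adjusted p = 0.0426), and 0.241% of genes were called higher. Its 9 arrays of 4.5 months lay between 7.79 and 8.49, against 7.48 to 8.01 on the 9 arrays of 1.5 months. Lyz2 was 0.93 ± 0.22 higher (adjusted p = 0.0468), with 8.18 to 10.95 at 4.5 months, against 8.05 to 9.08 at 1.5 months, so that both genes overlapped between times. Leaving out 1 of the 18 arrays at a time ended the call of Adgre1 in 13 cases (adjusted p = 0.0511 to 0.0994) and that of Lyz2 in 14 (adjusted p = 0.0508 to 0.110). The call of Adgre1 held only without 1 of 5 arrays, replicate 2 of 0.3 Gy or replicate 1 of 3 Gy at 1.5 months, or at 4.5 months replicate 1 of 0.3 Gy, replicate 1 of 3 Gy or replicate 3 of 10 Gy. That of Lyz2 held only without replicate 3 of 0.3 Gy at 1.5 months, or the same 3 arrays of 4.5 months. Both calls were also lost without a filter on dim probes (adjusted p = 0.0716), on the arrays of the compared groups alone (adjusted p = 0.0857 and 0.119) and with the array that stood apart put back (adjusted p = 0.989).

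In control medulla Gpr65 rose. It had 7.86, 8.13 and 8.04 at 4.5 months, against 7.24, 7.41 and 7.30 at 1.5 months. The 3-month arrays had 7.76, 7.49 and 7.80. The 4.5-month arrays lay above every array of the other 2 times. The difference was 0.69 ± 0.13 (limma, adjusted p = 0.0334), a 1.62-fold higher signal, and 0.023% of 8677 genes were called higher. The 1.5-month mean of 7.31 lay close to the floor of 7.23 log2 units, so this fold rests on dim signal at that time. The call held without replicate 1 of 4.5 months and was lost on leaving out any other of the 6 arrays, with 0.65, 0.74 and 0.69 without replicates 1, 2 and 3 of 1.5 months (adjusted p = 0.306, 0.0504 and 0.148) and 0.64 and 0.68 without replicates 2 and 3 of 4.5 months (adjusted p = 0.103 and 0.162). It was also lost on the 2 groups' arrays alone (adjusted p = 0.123), without a filter on dim probes (adjusted p = 0.0545) and with the replicate number as a block (adjusted p = 0.0680).

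On the probes used, Adgre1 in control medulla had the widest difference over time, with 9.57, 9.59 and 9.39 at 4.5 months, against 7.74, 8.46 and 7.93 at 1.5 months. The arrays of 3 months, at 8.59, 8.29 and 8.82, overlapped with those of 1.5 months and lay under those of 4.5 months. The difference was 1.47 ± 0.35, a 2.78-fold value that missed the adjusted threshold (limma, adjusted p = 0.0930). C1qc had 9.29, 9.01 and 9.95 at 4.5 months, against 8.72, 8.46 and 8.23 at 1.5 months, without overlap, and the difference of 0.95 ± 0.25 was not called (adjusted p = 0.120). The members' median was 0.70 in control medulla, beside -0.03 over all genes. In exposed medulla the smallest p was that of C1qa (0.22 ± 0.07, limma adjusted p = 0.247), and the members' median was 0.28. The ranking depends on the probe: in control medulla the second probe of Adgre1 differed by 0.97, and Lyz2 by 0.76 on the probe used and by 1.65 on its second probe, which was nearly as bright.

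**Figure D2:**
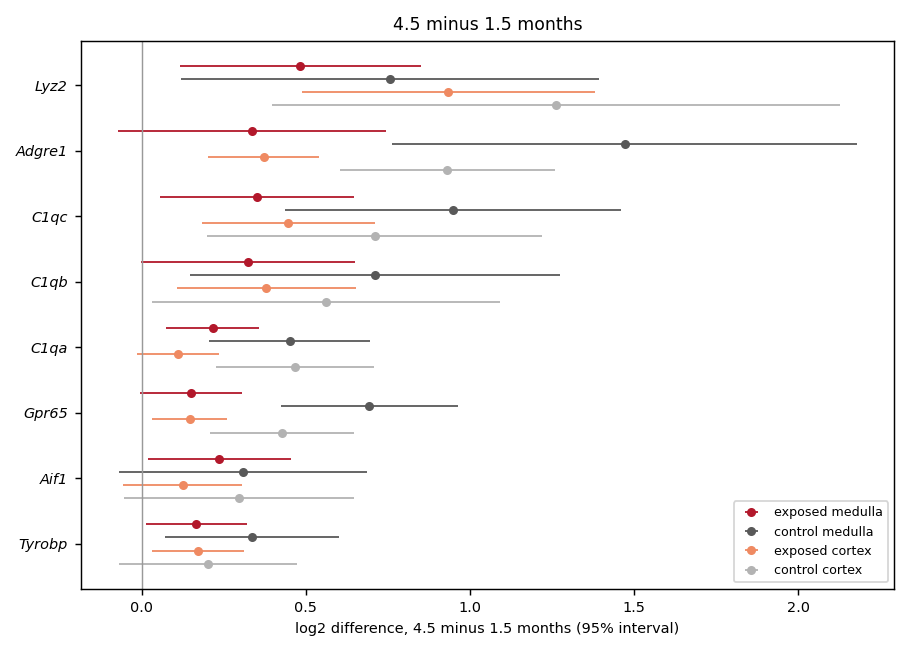
Log2 difference between 4.5 and 1.5 months for each member in exposed and control medulla and cortex, with 95% intervals on the horizontal axis. All points lie above 0, and on the probes used the highest is Adgre1 in control medulla at 1.47.

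The control groups of 4.5 months stood at the top of the order of group means. In cortex they were the highest of the 12 groups for 6 of the 8 members, and 3 Gy at 4.5 months was highest for Lyz2 and C1qb. In medulla they were the highest for 7 of 8, and 10 Gy at 3 months was highest for C1qb. Most neighbours in that order overlapped. In cortex 1 of 11 neighbouring pairs of groups was free of overlap for each of Adgre1, C1qa and Gpr65, and 0 for the other members. In medulla 1 pair was free of overlap for Gpr65 and 0 for the others. Neither count was made over all genes, so whether this order is particular to the members was not tested.

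**Figure D3:**
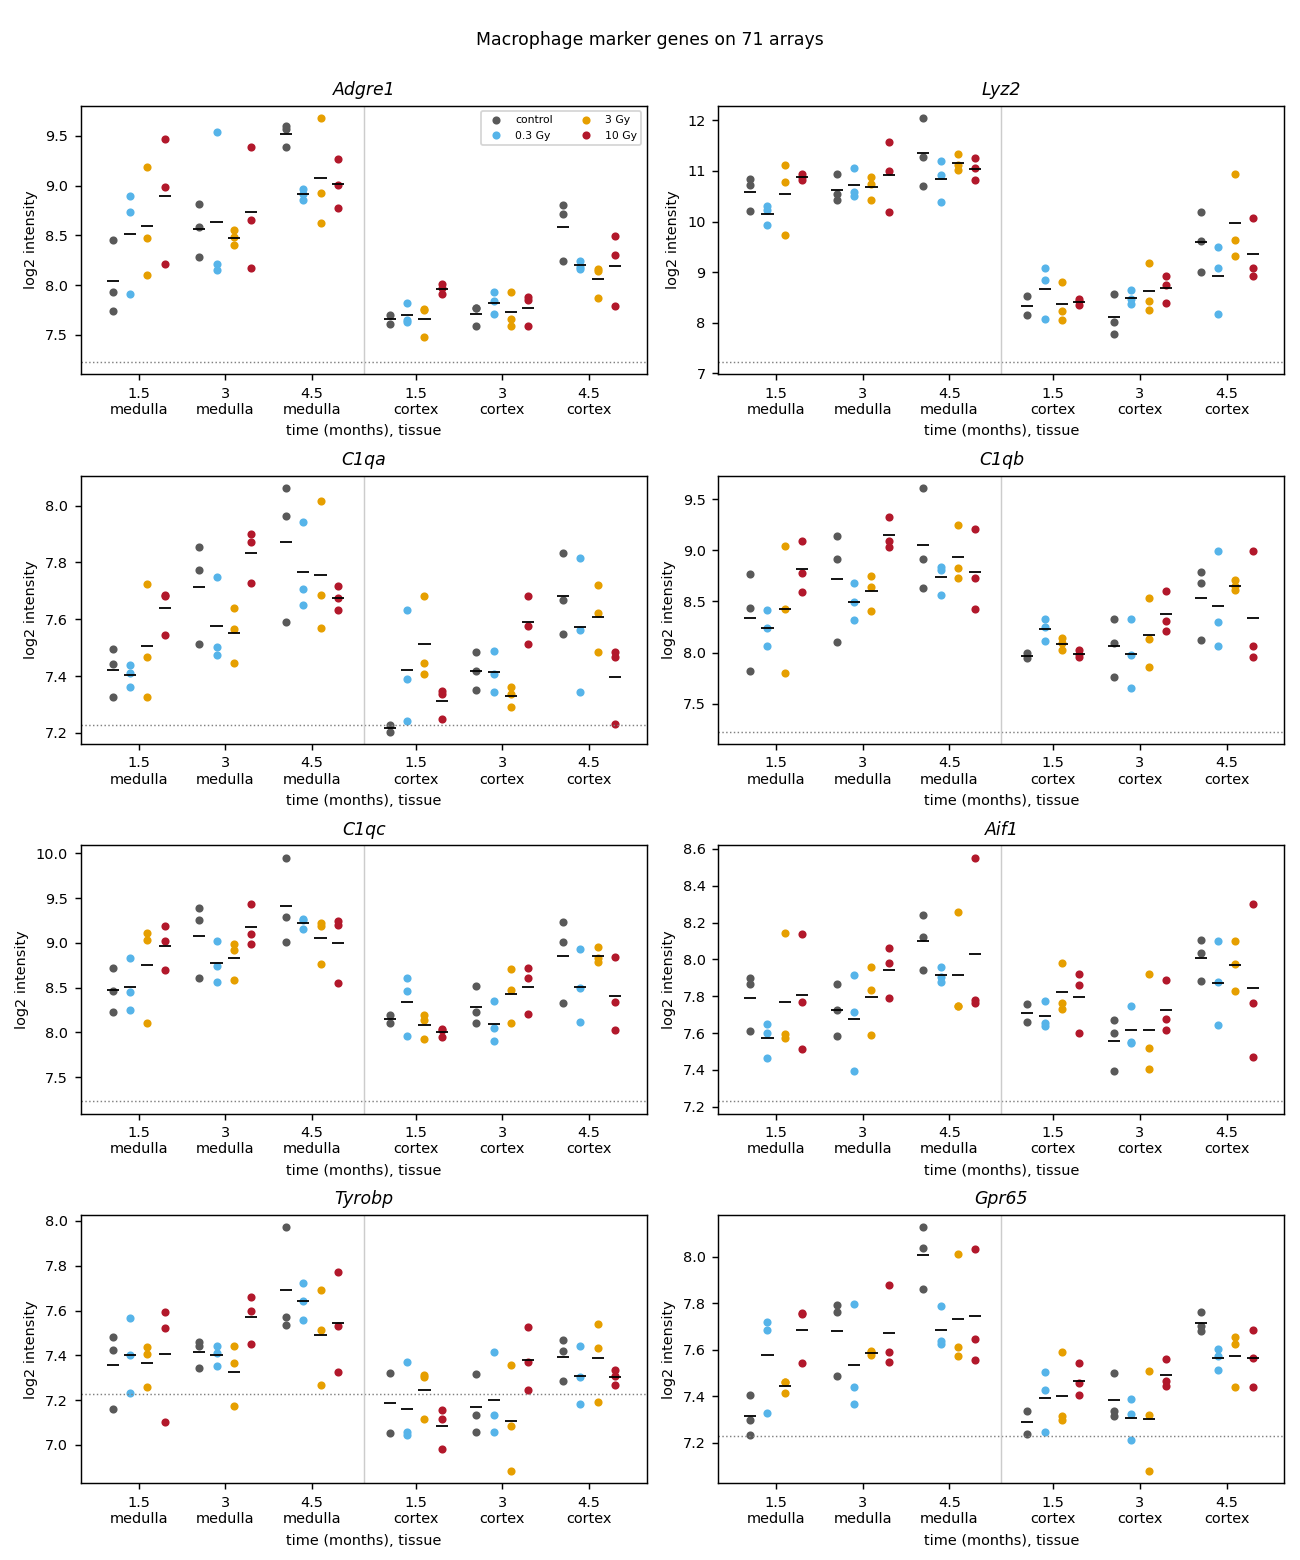
Log2 intensity of each member on the 71 arrays by tissue and time, with points for arrays coloured by control or absorbed dose, black bars for group means and a dotted line at the floor of 150. Adgre1 in control medulla reaches 9.39 to 9.59 at 4.5 months.

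The other macrophage and monocyte genes were above 0 between 4.5 and 1.5 months in most cases, 22 of 25 tested in control cortex (median 0.30) and 23 of 26 in control medulla (median 0.34). A gene passed the filter through any 1 group. Dim genes of this list and those below may thus have entered through groups where they were high, which can favour such counts and medians. In limma 0 of these were called in control kidneys, and 14 of the 25 in cortex and 15 of the 26 in medulla had an unadjusted p under 0.05, against 9.24% and 12.7% of all genes. With the array that stood apart put back, 0 of the 25 were above 0 in control cortex (median -0.60), and 0 were called in exposed cortex. In exposed cortex 3 rose, the lysosomal protease gene Ctss by 0.57, the actin regulator gene Coro1a by 0.56 and the tetraspanin gene Cd53 by 0.40. Antigen presentation and dendritic cell genes had larger differences, with medians of 1.22 over 6 genes in control cortex and 0.97 over 5 in control medulla (-0.02 in control cortex with that array put back), and 0 were called by limma, though all of them had an unadjusted p under 0.05. Their summed intensity in control cortex was 8866 to 42040 at 4.5 months, against 5472 to 5710 at 1.5 months, and in control medulla 10701 to 24432, against 7350 to 8975; 5 of the 13 genes were under the floor on all 71 arrays. T and NK cell genes summed to 3752 to 4777 at 4.5 months in control cortex, against 3520 to 4004 at 1.5 months, and 7 of their 17 genes were under the floor throughout. B cell genes summed to 973 to 1048, against 953 to 1040. Neutrophil genes summed to 1826 to 3222, against 1753 to 2147, in the same groups. In control medulla neutrophil genes summed to 1916 to 4390, against 1904 to 2447, and T and NK cell genes to 3267 to 4008, against 2898 to 3126. Neither the part of these cells in the time differences nor which genes carried the sums was tested.

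No member was called in any comparison of exposed with control kidneys. Over 28 comparisons of exposure, 18 of them of 1 dose at 1 time and 1 in each tissue of 10 Gy against 0.3 Gy, 224 member tests were made. In limma 0 of these passed after adjustment, against 0.0386% of all tests in the same comparisons, and 11 had an unadjusted p under 0.05, against 6.51%. The members' shares were therefore close to those of all genes. Over all doses and times, 0.0345% of genes were called in cortex and 0.0576% in medulla. There the members' differences from control ran from -0.08 to 0.15 log2 units in cortex and from -0.09 to 0.05 in medulla. The intervals were narrow for Gpr65 in cortex (-0.01, 95% interval -0.11 to 0.09) and wide for Lyz2 in cortex (0.15, 95% interval -0.24 to 0.53). With the array that stood apart put back, all 8 members lay below control in cortex, from -0.49 (Adgre1) to -0.22 (C1qa) with a median of -0.37, and 0 were called, where 0.0115% of genes were and 46.9% lay below 0. Gpr65 was then at -0.38 (95% interval -0.81 to 0.04) and Lyz2 at -0.49 (-1.29 to 0.31), and at 1.5 months in cortex all 8 members lay below control at each dose, with medians of -1.02 at 0.3 Gy and -0.98 at 10 Gy. Of the other macrophage and monocyte genes, 0 were called in 714 tests of the same comparisons, and 27 had an unadjusted p under 0.05.

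Differences within a time were larger, and their sign varied with dose, tissue and time. At 3 months 2, 2 and 7 of 8 members lay above control in medulla at 0.3, 3 and 10 Gy. In cortex 4, 5 and 8 did. At 1.5 months in cortex 6, 7 and 6 did, and 0 at each dose with the array that stood apart put back. In medulla at that time 4 of 8 did at 0.3 Gy (median 0.01) and 6 at 3 Gy (median 0.08). At 1.5 months in medulla, 10 Gy gave values above control for 8 of 8 members, with a median of 0.33, where 47.6% of all genes were above. Gpr65 had 7.75, 7.76 and 7.54 there, against 7.24, 7.41 and 7.30 in control, without overlap (0.37 ± 0.13, unadjusted p = 0.00867, adjusted p = 0.999 in limma). These Gpr65 controls lay close to the floor of 7.23 log2 units. Adgre1 had 9.47, 8.21 and 8.99, against 7.74, 8.46 and 7.93, and 1 of the 10 Gy arrays lay below the highest control (0.85 ± 0.35, adjusted p = 0.999).

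At 4.5 months the members lay below control at nearly every dose. In medulla 8 of 8 were below control at 0.3, 3 and 10 Gy, with medians of -0.26, -0.20 and -0.26, where 46.3, 48.4 and 44.5% of all genes were below. In cortex 8, 6 and 8 of 8 were below control, with medians of -0.14, -0.02 and -0.22, where 44.2, 42.8 and 47.9% of all genes were. Each tissue's comparisons share 3 control arrays, which were the highest groups for most members, so the doses are not independent of each other. The 8 members share these arrays too and are not independent of each other. Adgre1 in cortex had 8.17, 8.18 and 8.24 at 0.3 Gy, 7.87, 8.16 and 8.14 at 3 Gy and 8.49, 8.30 and 7.79 at 10 Gy, against 8.25, 8.72 and 8.80 in control. The 0.3 and 3 Gy arrays lay below all 3 controls, and 2 of the 10 Gy arrays overlapped with the lowest control. The differences were -0.39, -0.53 and -0.39 (unadjusted p = 0.0106, 0.000886 and 0.0100; adjusted p = 0.356, 0.233 and 0.999 in limma). Of the 9 exposed cortex arrays of this time, 9 were below the control mean for Adgre1 and 9 for Gpr65. The count in cortex was 7 for C1qa and C1qc, 6 for Lyz2, Aif1 and Tyrobp and 4 for C1qb. In medulla it was 9 for Lyz2 and C1qc, 8 for Adgre1, 7 for Gpr65, C1qa, C1qb and Aif1 and 6 for Tyrobp.

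**Figure D4:**
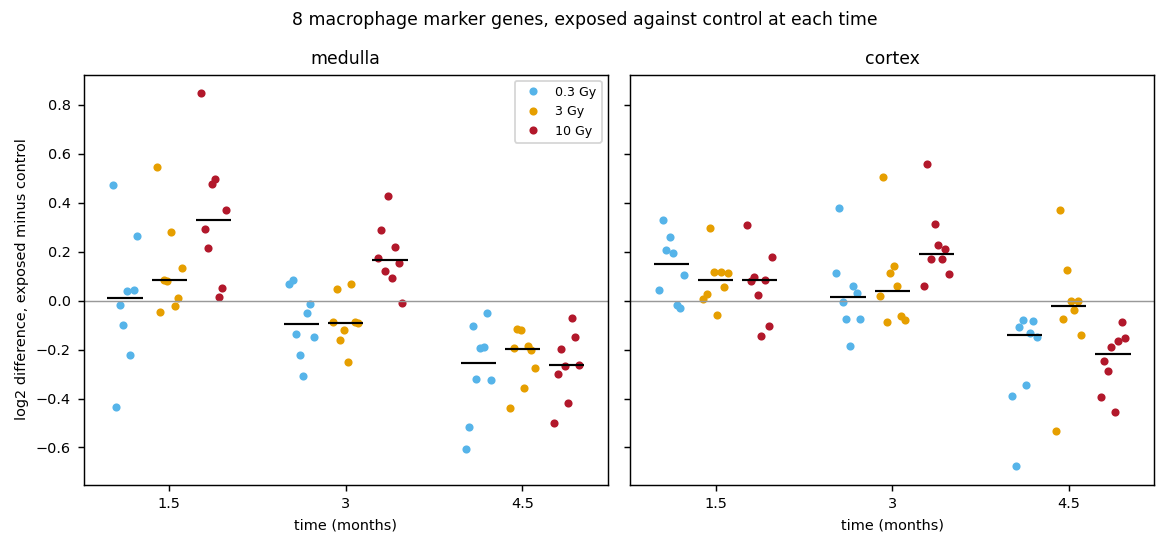
Log2 difference from control of the 8 members at each absorbed dose and time, in medulla and cortex, with a point per gene and a black bar at the median. At 4.5 months the medians lie from -0.26 to -0.20 in medulla and from -0.22 to -0.02 in cortex, and no point passed the adjusted test.

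The change between 4.5 and 1.5 months was smaller in exposed than in control kidneys for 8 of 8 members in both tissues, by a median of 0.33 log2 units in medulla and 0.27 in cortex, while 45.9 and 46.6% of all genes had a smaller change. In limma 0 members passed after adjustment, where 0% of genes were called in either tissue. An unadjusted p under 0.05 was found for 3 of 8 members in each, against 7.71% of all genes in medulla and 2.6% in cortex. The comparison uses the same control arrays as those within each time, and the 8 members, measured on the same arrays, are not independent of each other. In medulla the smallest p was that of Gpr65 (-0.54 ± 0.15, adjusted p = 0.448) and in cortex that of Adgre1 (-0.56 ± 0.18, adjusted p = 1.00, limma). With the array that stood apart put back, the cortex value turned sign for all 8 members, from 0.36 (C1qa) to 1.58 (Lyz2) with a median of 0.82 and 0.67 for Adgre1, and 0 were called, so that the smaller change in exposed cortex rests on leaving that array out.

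Doses were also compared with each other and over time. Members at 10 Gy against 0.3 Gy in medulla were above 0 in 8 of 8 cases with a median of 0.20, where 50.2% of all genes were above 0, and C1qb had the smallest p (0.43 ± 0.16, limma adjusted p = 0.441). In cortex the median was 0.05, with the smallest p for Gpr65 (limma adjusted p = 0.805). For dose by time, 0 members were called in either tissue, where 0% of genes were called in medulla and 0.023% in cortex. An unadjusted p under 0.05 in limma was found for 1 of 8 in medulla, against 5.82% of all genes, and 2 of 8 in cortex, against 5.53%. The smallest adjusted p was that of C1qa in cortex (0.713). The response to all doses differed between medulla and cortex for 0 of 8 members by limma, and 0 had an unadjusted p under 0.05, where 0% and 3.37% of genes did. The widest value was that of Lyz2 (-0.23). Once the array that stood apart was put back, 6 of the 8 values turned sign and all 8 lay above 0, from 0.18 to 0.55, with 0 called.

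Members were next compared with each other on the same arrays, after taking away each group's mean, so that tissue, dose and time do not enter. Over the 28 pairs the median Pearson r was 0.44 in medulla (36 arrays, from 0.21 to 0.81) and 0.34 in cortex (35 arrays, from -0.12 to 0.79). Spearman's rho had medians of 0.39 and 0.25, and without the 2 arrays farthest on the first gene of a pair the median r was 0.40 and 0.22. C1qb and C1qc had the highest Pearson r of the pairs in both tissues. In medulla they had r = 0.81 and rho = 0.81, and in cortex r = 0.79 and rho = 0.76. Each had a permutation p of 1e-05, the smallest that 100000 permutations give, and adjusted p over the 28 pairs of 4.67e-05 and 7e-05. Deviations within a group sum to 0 and are not independent, so the permutation p-values of all pairs are likely too small. Without the 2 farthest arrays r was 0.77 in medulla and 0.73 in cortex, below the 0.79 and 0.76 of Lyz2 and C1qc. Over 36 cortex arrays, the one that stood apart included, the 28 pairs in cortex had r from 0.84 to 0.96.

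Lyz2 kept close to C1qc, with r = 0.81 in medulla and 0.74 in cortex (rho = 0.80 and 0.78), and in cortex its rho was above that of C1qb and C1qc. Adgre1 went with Gpr65 in medulla (r = 0.69, rho = 0.67) more than with any other member. In cortex this pair had r = 0.41 (rho = 0.40, permutation p = 0.0149, adjusted p = 0.0348). With deviations that are not independent within groups, this cortex p-value may not hold. Aif1 and Tyrobp were the least alike in both tissues (r = 0.21 and -0.12). All members share the same hybridisation of an array, and dim genes such as Tyrobp carry more noise.

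**Figure D5:**
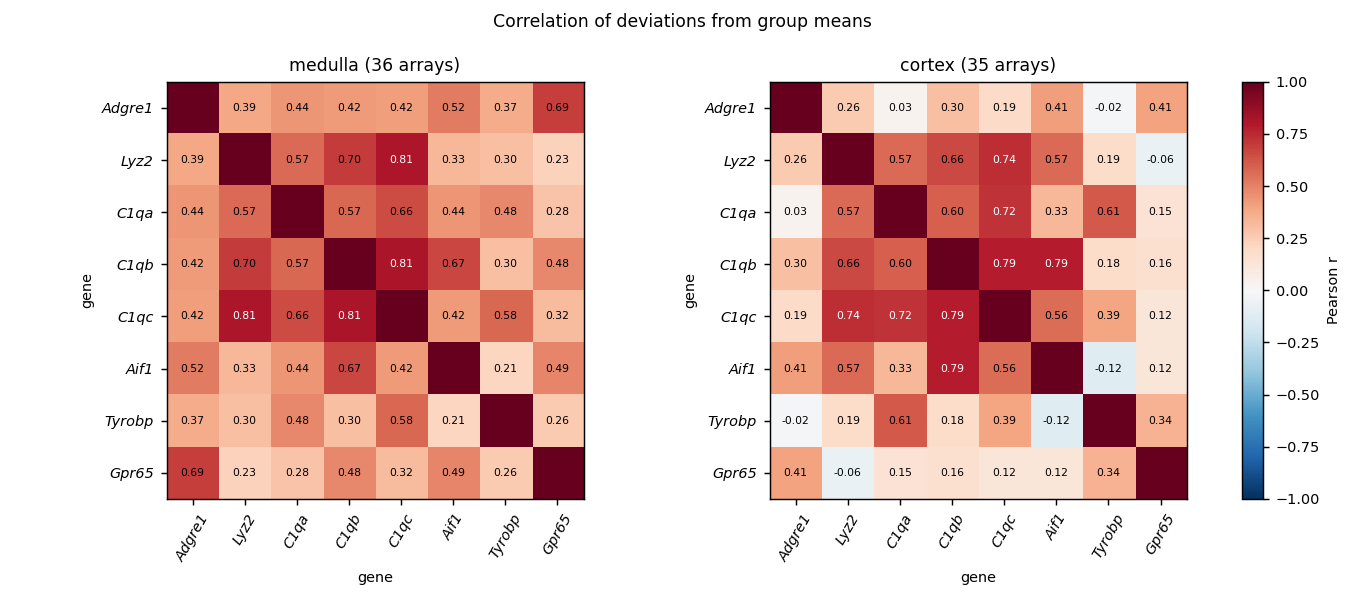
Pearson r between members over 36 medulla and 35 cortex arrays, after each group's mean was taken away, with red for values above 0 and blue for values below 0. C1qb and C1qc have 0.81 in medulla and 0.79 in cortex.

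The 10 genes outside the members whose deviations were most like the members' mean were ranked among 9011 genes over 71 arrays, where the median r of all genes was 0.03. They were Laptm5 (r = 0.87), Ms4a6d (0.84), Ncf4 (0.83), Ms4a7 (0.82), Lyz1 (0.82), Ly86 (0.81), Coro1a (0.81), Fpr2 (0.77), P2ry6 (0.76) and Alox5ap (0.75). Of these, Ncf4 encodes a subunit of the phagocyte oxidase, Fpr2 a receptor for formylated peptides and Alox5ap a partner of the lipoxygenase that makes leukotrienes. Laptm5 had r = 0.86 in medulla and 0.92 in cortex.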

How the data were processed

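The authors deposited probe intensities of total RNA hybridised to Illumina bead arrays, on a linear scale. Sorted values of the 72 arrays differ by at most 1.26 units, so the deposited intensity values were made alike between arrays before deposit; the tool is not given in the sources used here. A second table of unnormalized signals has 144 columns that the labels do not tie to samples, and it was not used. Intensities were taken as log2 without an offset. A gene was kept where its brightest probe reached 150 on all arrays of at least 1 group, which left 8677 genes in medulla, 8699 in cortex and 9019 in both. Group means were fitted with limma 3.58.1 in R 4.3.3 (lmFit, eBayes with trend), with 1 fit per tissue and 1 over both for tissue contrasts. Benjamini-Hochberg adjustment ran over all genes of a fit, and a call is an adjusted p under 0.05. The order of groups and the correlations were computed in Python 3.11.15 (100000 permutations). Of 25697 probes, 23978 have 1 symbol in the annotation and 1719 none. The comparison of all doses with control was also run on simulated data in each tissue, with independent normal noise. That run does not cover the time or tissue comparisons, or arrays that are not independent. Depth has no counterpart on arrays; their number, 2 or 3 per group, limits the precision. Alternatives were a replicate block, other probe rules, floors, normalizations, weights and spreads, and leaving out or adding single arrays. The text gives every member in the tissue contrast and, in other contrasts, those called and the one with the smallest p; of the 15 gene lists it names at most 5 of those called. Per-array values of Lyz2, C1qc and Adgre1 that were not called were chosen after they were seen. The members and lists were chosen with earlier results of these data known.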

Additional observations from a re-analysis of the deposited data

Results flagged for a closer look

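Replicate 3 of the control cortex at 1.5 months was used in no comparison, and on it every one of the 8 measured members was above its level on each of the other 71 arrays. Its log2 intensity was 11.34 for Adgre1, against at most 9.68 on any other array, and 14.05 for Lyz2, against at most 12.05. C1qa stood at 9.37, C1qb at 10.86 and C1qc at 11.35, and Aif1 at 11.04, Tyrobp at 10.17 and Gpr65 at 10.65. The summed intensity of other white blood cell genes was also high there, at 12188 for T and NK cell genes, 30230 for B cell genes and 47222 for neutrophil genes, against 3520 to 4004, 953 to 1040 and 1753 to 2147 on the other 2 arrays of the group. Erythroid genes summed to 71729, against 12803 to 13405. Thick ascending limb genes were low, at 767, against 46629 to 53069, and so were proximal tubule genes, at 15254, against 91108 to 101080. Collecting duct genes summed to 19345, against 6712 to 7014. Slc4a1 is in both the erythroid and the collecting duct lists. Neither the cause nor which genes raised the collecting duct sum was tested.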

How the results depend on the processing

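Across the alternatives the tissue and exposure counts mostly stayed as reported. Counts of called members moved in these cases: with the array that stood apart put back, to 4 in exposed and 1 in control kidneys between tissues, and to 0 between 4.5 and 1.5 months in exposed and in control cortex; with the mean of all probes, to 0 in control cortex over time; without a filter on dim probes, to 0 in control medulla and in exposed cortex over time; with array weights, to 2 in control medulla (C1qa added) and 3 in exposed cortex over time (C1qc added, 0.47, adjusted p = 0.0233 in limma); with a stricter floor, to 6 in both tissue contrasts; and on the arrays of the compared groups alone, to 0 in control medulla, exposed cortex and control cortex. Leaving out 1 array gave 0 to 1 calls over time in control medulla and control cortex, 0 to 2 in exposed cortex, and 6 to 7 in the control tissue contrast. Among the single values followed here, those that turned sign all came with that array put back: over time in control cortex Adgre1 -0.30, Lyz2 -0.64, C1qa -0.25, C1qb -0.40, C1qc -0.36, Aif1 -0.81, Tyrobp -0.79 and Gpr65 -0.70; between tissues in control Aif1 -0.25, C1qa -0.0097, Gpr65 -0.17 and Tyrobp -0.093; in cortex at 1.5 months C1qa -0.51 at 0.3 Gy and -0.42 at 3 Gy and Adgre1 -0.92 at 10 Gy; the exposed minus control change in cortex for all 8 members (Adgre1 0.67); and the tissue difference of the Lyz2 response, 0.40. The cause was not tested.

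Within a tissue the replicate numbers did not pair the samples: arrays of the same tissue and number had a median r of -0.01 in their deviations from group means, and those of other numbers 0.01. Arrays of the same number, dose and time in the other tissue had a median r of 0.13, against -0.11 for other numbers, and 62.9% of them were over 0.1, against 21.4%; the numbers thus went together across tissues for most but not all pairs, and the tissue fit reported does not use this. With the number as a block the count over time in control medulla was 0 (Gpr65 adjusted p = 0.0680), and the other counts stayed within 1.5 times. A random block over the arrays of both tissues with the same dose, time and number, added after seeing the data, left 7 members called between tissues in exposed and in control kidneys; the test of the exposed minus control change was added then too. Normalization from unnormalized signals and a detection filter were not run, because those columns could not be given samples. Members near the floor, Tyrobp above all, limit what dim signal can show. So do C1qa in control cortex and Gpr65 in both control tissues at 1.5 months.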
